A study of Nothobranchius furzeri with 20 samples.

Results

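Skin of older and younger turquoise killifish was compared at the same rotenone dose. The older fish were 27 weeks of age and the younger 9 weeks, and both ages had received rotenone at 1% of LC50, the concentration lethal to 50% of animals. The members are 10 of the 20 RNA sequencing libraries of the series, chosen by the age and dose in their labels, with 5 libraries at each age. All fish were Nothobranchius furzeri males of the strain MZM-04/10p. A further 5 libraries, from 9-week males at 10% of LC50, entered the statistical fit as a source of the spread between libraries, and their values are given beside some results. The remaining 5, from 9-week males at 0.1% of LC50, were deposited as a separate set of counts. They were used in the fit of all 20 libraries and for values given beside those of the younger fish. The labels describe no fish without rotenone at either age and do not state how long each fish was exposed, so the differences are those of age under rotenone. They give no date or batch either, so a difference in handling between the ages cannot be told apart from age. That each library is a separate fish is not stated, and p-values therefore measure the spread between these libraries.

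Nothobranchius furzeri is an annual fish of seasonal pools that matures and ages within months, which has made it a model of vertebrate ageing. Its skin, like that of other bony fish, holds a living epidermis with mucous cells over a dermis that carries scales and pigment cells. Rotenone blocks the passage of electrons from NADH to ubiquinone at complex I of the mitochondrial respiratory chain. In tissue samples, fewer cells of a type and less RNA per cell cannot be told apart. The deposited tables list genes by identifier without names, and 0 of 26739 identifiers matched the available table of names. The skin label could therefore not be checked against marker genes, and genes are described by abundance, by spread and by rank.

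Read totals ran from 23423536 to 27739914 at 27 weeks and from 21770720 to 25624624 at 9 weeks. Of 26739 genes, 18473 had enough reads to be tested. A first principal component of log2 CPM (reads of a gene scaled to a common library size with TMM factors) held 26.8% of the variance of the 10 libraries. It placed the 27-week libraries between 24.51 and 38.43 and the 9-week libraries between -64.8 and -4.21, with replicate 3 nearest to the older fish. The second component held 19.8% and ran from -10.2 to 30.7 at 27 weeks, against -50.3 to 54.3 at 9 weeks.

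At 27 weeks 385 genes were higher, 2.08% of those tested, and 444 were lower, 2.4%, which makes 829 called genes or 4.49% (quasi-likelihood test of edgeR, with p adjusted over all genes by Benjamini-Hochberg and a threshold of 0.05). An unadjusted p under 0.05 was given by edgeR for 4249 genes or 23.0%, 2010 higher (10.9%) and 2239 lower (12.1%). Both ages were free of overlap in CPM for 5.95% of all genes tested, 559 higher (3.03%) and 541 lower (2.93%) at 27 weeks. All 829 genes kept their direction in each of the 10 fits that left out 1 library, but only 16 were called in every one of them. Each of these fits shares all but 1 library with the fit that chose the genes, so a kept direction is no separate support. In at least 9 of these fits 38 genes were called, 22 higher and 16 lower, and in at least 5 of them 233 genes, 112 higher and 121 lower. The count fell to 94, 61, 255, 458 and 52 without replicates 1 to 5 at 27 weeks. Without replicates 1 to 5 at 9 weeks it was 325, 17, 1754, 433 and 481. Replicate 3 was thus the only library whose absence raised the count by more than 1.5 times, and 807 of the 829 genes were among the 1754. When the 10 libraries at 1% were fitted alone, 103 genes were called, and 92 of them were among the 829.

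The identifiers printed here were taken by a rule: in each direction the gene with the smallest p, and the gene with the largest difference of mean CPM, among called genes without overlap whose mean log2 CPM was at least 1. That both ages do not overlap was thus a condition of the choice. Nfu_g_1_019448 had 60.8, 81.3, 61.9, 114 and 79.0 CPM in the 27-week libraries, against 19.2, 17.6, 28.7, 15.52 and 21.2 CPM in the 9-week libraries. Its lowest older library held more than 2 times as much as its highest younger one. The gene rose 3.88-fold (log2 change 1.95, SE 0.22, edgeR adjusted p = 0.004) and was called in all 10 fits without 1 library. At 9 weeks and 10% of LC50 it ran from 19.1 to 36.0 CPM, below every 27-week library.

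Nfu_g_1_005846 had 5.38, 4.79, 6.46, 6.85 and 4.78 CPM in the 27-week libraries and 17.9, 17.9, 10.2, 11.9 and 17.0 CPM in the 9-week libraries. Older fish lay in a narrow band, and replicates 3 and 4 were the lowest among the younger. The gene fell 2.65-fold (log2 change -1.40, SE 0.18, edgeR adjusted p = 0.0122), with adjusted p between 0.00128 and 0.0399 when 1 library was left out. At 9 weeks and 10% of LC50 it had 16.7 to 25.1 CPM.

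The largest decrease in mean CPM among the eligible genes was that of Nfu_g_1_022286, the gene of rank 128 by mean share of reads. It had 437, 453, 709, 518 and 623 CPM in the 27-week libraries, against 2139, 1449, 1074, 1168 and 1466 CPM in the 9-week libraries. Younger fish differed from each other by up to 2 times, replicate 1 being the highest. The gene fell 2.66-fold (log2 change -1.41, SE 0.21, edgeR adjusted p = 0.0134) and was called in all 10 fits without 1 library. Among the eligible genes, the largest increase in mean CPM was that of Nfu_g_1_012319, of rank 14. It had 4921, 5047, 4390, 4184 and 5233 CPM in the 27-week libraries. The same gene had 3570, 3608, 3471, 3817 and 3510 CPM in the 9-week libraries, and the change was 1.32-fold (log2 change 0.40, SE 0.10, edgeR adjusted p = 0.0398). Its call is the weakest of these genes: it passed in 2 of the 10 fits without 1 library, with adjusted p from 0.0397 to 0.0954. In the fit of the 10 libraries alone its edgeR adjusted p was 0.0657. At 9 weeks and 10% of LC50, Nfu_g_1_012319 had 3857 to 5278 CPM, which overlaps the 27-week range and lies above every 9-week library at 1%.

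**Figure D1:**
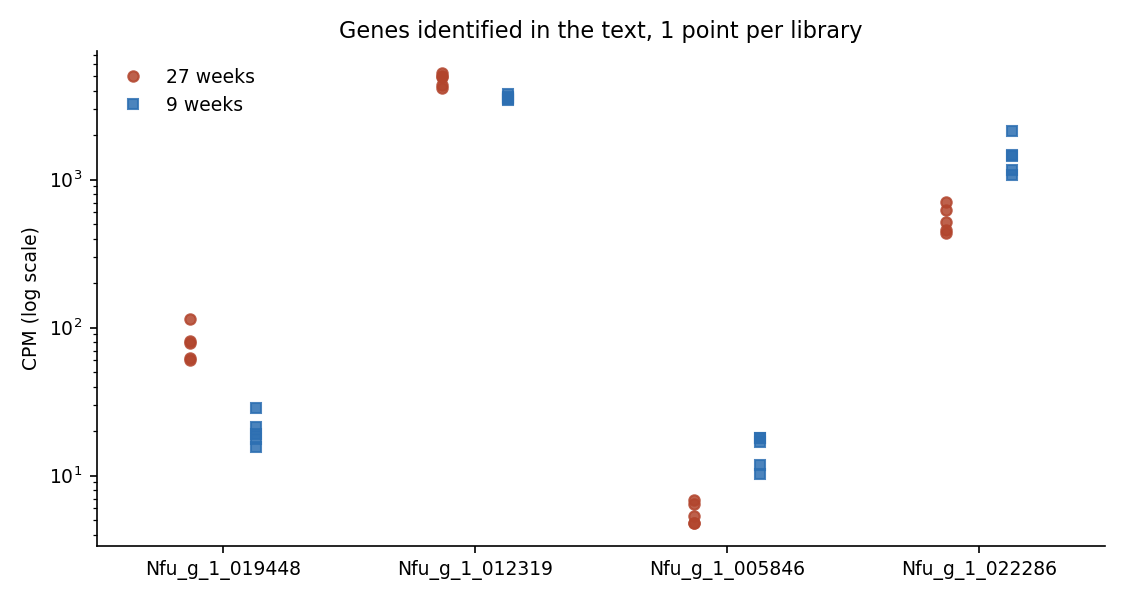
CPM on a log axis for the genes identified by the rule, with 27-week libraries (circles) left of 9-week libraries (squares), 5 points each. Nfu_g_1_019448 and Nfu_g_1_012319 are higher at 27 weeks and Nfu_g_1_005846 and Nfu_g_1_022286 lower, the gap being narrowest for Nfu_g_1_012319 at 4755 against 3595 CPM on average.

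In the fit of 15 libraries the balance of calls shifted with transcript abundance. Genes were placed in 7 classes by mean log2 CPM over the 10 libraries, so that neither age alone set the class. Among the 1829 rarest genes, with a mean log2 CPM under 0, 7 rose and 39 fell, so that 84.8% of the calls were decreases. The filter, described below, let rare genes read in younger fish alone pass more easily, which bears on this share. In the fit of the 10 libraries 2 rose and 0 fell of 1403 genes, too few to show a balance. The classes 0 to 2 and 2 to 4 had 25 higher and 67 lower, and 92 higher and 133 lower. From 4 to 6 the balance turned, with 189 higher and 151 lower of 5615 genes, and from 6 to 8 there were 61 higher and 37 lower of 1796. Where the balance turned depended on the fit: with all 20 libraries the class from 2 to 4 had 64 higher and 55 lower, and without replicate 2 at 27 weeks 12 and 10. Without replicate 3 at 27 weeks the class from 6 to 8 had 10 higher and 13 lower. Of the 300 genes from 8 to 10, 9 rose and 14 fell, and of the 126 genes at 10 and over, 2 rose and 3 fell (1 and 3 with upper quartile scaling). These are few calls, and at an unadjusted p under 0.05 the same edgeR fit leaned the other way. It then gave 59 higher and 30 lower from 8 to 10, and 32 higher and 11 lower at 10 and over. Without replicate 3 at 9 weeks the class from 8 to 10 had 27 higher and 17 lower, and DESeq2 gave 29 higher and 25 lower. At 10 and over DESeq2 called 11 higher and 7 lower. The share of genes called was lowest for the rarest genes, at 2.52%, and highest from 8 to 10, at 7.67%, against 4.49% over all classes. This order did not hold in the fit of the 10 libraries alone, where the share was highest from 4 to 6, at 0.677%, and the rarest class had 0.143%. From 8 to 10 it was close to the highest, at 0.667%, and lowest at 10 and over, with 0 of 126 genes called. The median SE of a log2 change was 0.439, 0.303, 0.194, 0.149, 0.151, 0.167 and 0.114 along the 7 classes, so precision did not grow at each step.

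Called changes were largest in the rarest class. The median SE was also largest there, so a change had to be larger to be called. Decreases had a median of 3.74-fold under a log2 CPM of 0, 1.56-fold from 4 to 6, 2.14-fold from 8 to 10, and 2.44-fold at 10 and over. Increases had medians of 2.61-fold, 1.49-fold, 1.49-fold and 1.31-fold in the same classes. Of the genes that fell more than 2-fold, 95 of 200 had a mean log2 CPM under 2, and of those that rose more than 2-fold, 21 of 74 did. Of all 18473 genes tested, 1829 had a mean log2 CPM under 0 and 3315 from 0 to 2. The share among the risers was thus near that of all genes, and the share among the fallers was above it. The median log2 change of all genes tested rose at each step, being -0.207, -0.0701, -0.0201, 0.00737, 0.0218, 0.114 and 0.176 along the 7 classes, around -0.0206 over all genes. From 8 to 10 and at 10 and over it was thus above 0, although more called genes fell than rose in the edgeR fit of 15 libraries. With upper quartile scaling, which moved the median of all genes to -0.0361, the class from 4 to 6 had -0.0089, so its sign is not fixed. When 1 library was left out, the median stayed between -0.227 and -0.142 for the rarest class and between 0.144 and 0.209 for the most abundant. The filter asked for reads in 5 of 15 libraries, of which 10 came from 9-week fish, so a rare gene read in younger fish alone passed more easily. With the filter applied to the 10 libraries at 1%, 1403 genes were left in the rarest class and its median was -0.152. That fit also took its spread from these 10 libraries alone, so the effect of the filter by itself was not tested. In that fit 2 of the 1403 genes rose and 0 fell, too few calls to show a balance (limma voom on the same libraries called 0 higher and 1 lower). At an unadjusted p under 0.05 edgeR gave 54 higher and 168 lower in this class of that fit. The class from 0 to 2 had 3 higher and 18 lower called in that fit.

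**Figure D2:**
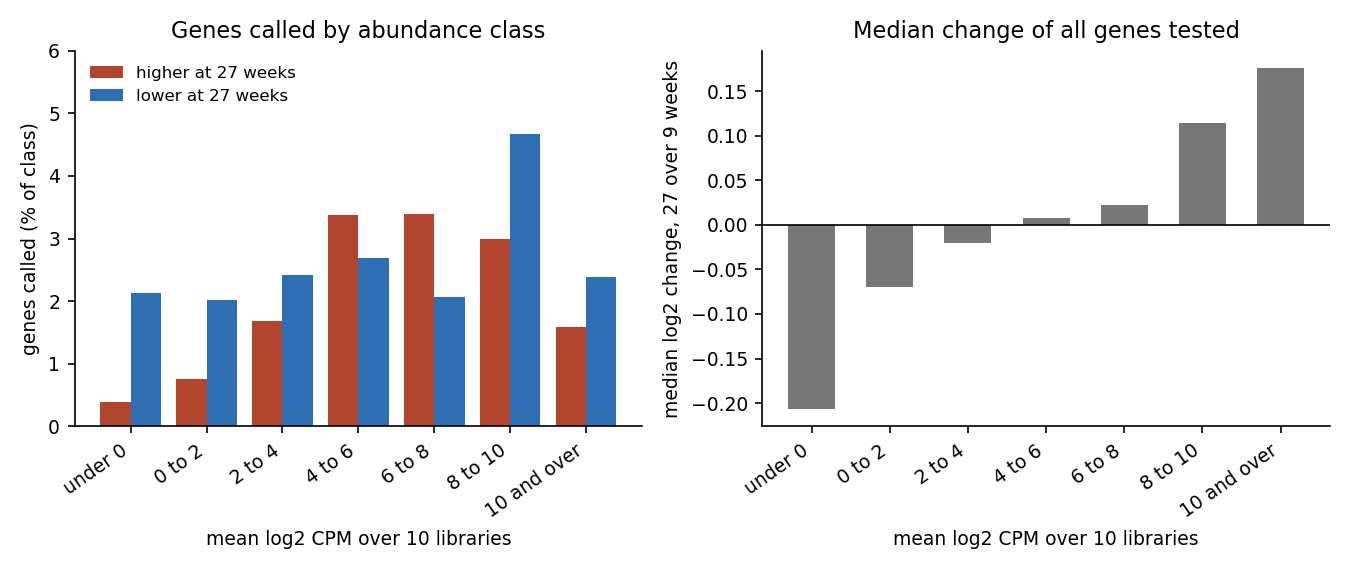
Left, genes called as a percent of the genes tested in each class of mean log2 CPM, higher and lower at 27 weeks side by side. Right, the median log2 change (27 weeks over 9 weeks) of all genes tested in the class, which runs from -0.207 for the rarest to 0.176 for the most abundant genes.

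Libraries at 27 weeks were closer to each other than libraries at 9 weeks. The deviation of a library was taken as the root mean square, over genes, of its distance in log2 CPM from the mean of its own age. It was 0.446, 0.433, 0.415, 0.367 and 0.418 in the 27-week libraries, against 0.635, 0.445, 0.517, 0.531 and 0.611 in the 9-week libraries. Replicates 1 and 5 stood highest at 9 weeks, and only replicate 2 there lay within the range of the older fish. The means were 0.416 ± 0.0299 at 27 weeks and 0.548 ± 0.0764 at 9 weeks (SD, n = 5 each). Their difference of -0.132 passed the threshold (two-sided exact permutation p = 0.0159, where 252 labellings allow no p under 0.00794). The 5 values of an age are measured from a mean they share, and the labellings did not recompute them. They are therefore not independent, and the p is approximate. Without replicate 1 at 9 weeks the difference was -0.0997 and no longer passed (exact permutation p = 0.0794).

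Per gene, the SD of log2 CPM was lower at 27 weeks for 12804 of the 18473 genes, or 69.3%, with a median of 0.251 at 27 weeks and 0.331 at 9 weeks. It was lower at 27 weeks for 61.9% of the rarest genes, and this share grew to 76.0% from 6 to 8 and 83.7% from 8 to 10, before 62.7% at 10 and over. Genes with an SD over 1 numbered 447 at 27 weeks and 1036 at 9 weeks, and 252 were in both lists, 56.4% of the first and 24.3% of the second. An SD more than 4 times that of the other age was found for 74 genes at 27 weeks and for 570 genes at 9 weeks. Of the 1036 genes with an SD over 1 at 9 weeks, replicate 1 was farthest from the median for 340 and replicate 5 for 301, against 97 to 150 for each of the other 3. Replicate 1 lay above the median in 193 of its 340 genes, whereas replicate 5 lay above it in 54 of 301, so that its wide genes were mostly low ones. At 27 weeks no library held more than 129 of the 447.

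The same contrast was present after removal of counting error. The biological coefficient of variation, which edgeR estimates as the spread beyond that of counting, was 0.241 at 27 weeks and 0.342 at 9 weeks over all genes tested. With 1 library left out it lay between 0.234 and 0.252 at 27 weeks, and between 0.316 and 0.363 at 9 weeks. It was lower at 27 weeks in each of the 7 abundance classes, the ratio of the ages running from 0.672 from 8 to 10 to 0.799 at 10 and over. The other 9-week groups had 0.426 at 10% and 0.469 at 0.1% of LC50, both on a slightly larger set of 18808 genes. Pairs of 27-week libraries had Spearman correlations across genes of 0.973 to 0.984, pairs of 9-week libraries 0.944 to 0.972, and pairs of an older with a younger library 0.937 to 0.974. These pairs share libraries, so the ranges are a description.

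**Figure D3:**
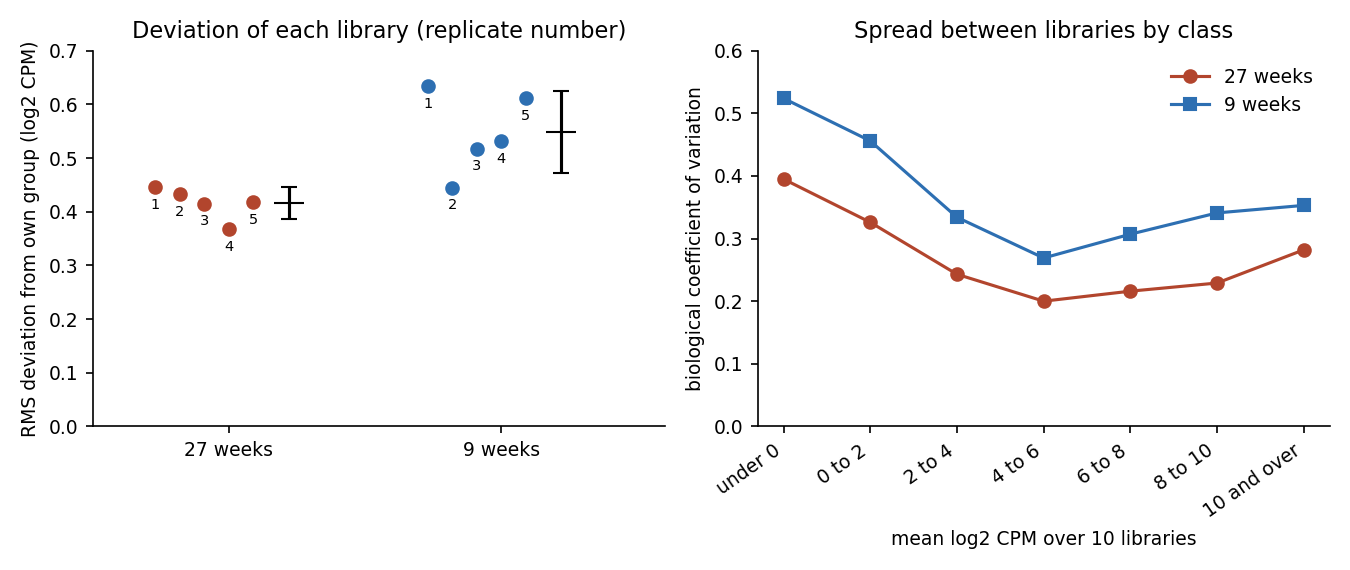
Left, root mean square deviation of each library from its own age, in log2 CPM, numbered by replicate, with mean and SD beside the 5 points. Right, biological coefficient of variation by class of mean log2 CPM, which is lower at 27 weeks (circles) than at 9 weeks (squares) in all 7 classes.

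The called genes shared this feature, and the fit used 1 spread for all groups. Genes that rose had a median SD of 0.203 at 27 weeks and 0.258 at 9 weeks, and genes that fell 0.269 and 0.403. The SD was lower at 27 weeks for 71.7% of the risers and 78.8% of the fallers, against 69.3% of all genes tested. Risers had a median log2 CPM of 4.7, and in the class from 4 to 6 the share over all genes was 72.4%, near theirs. Fallers had a median of 3.75, and in the class from 2 to 4 the share over all genes was 68.1%. A test with a variance weight per group (limma voom) gave the 27-week libraries a weight of 1.32 and the 9-week libraries at 1% 0.81. The 9-week libraries at 10% of LC50 had 0.93. By weight they thus spread less than those at 1%, the reverse of the order by biological coefficient of variation. The weighted test called 461 genes higher and 452 lower, and 753 of the 829 genes were among them.

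A small number of genes held much of each library. The most abundant gene of a library took 3.05%, 4.09%, 3.36%, 3.61% and 2.95% of reads in the 27-week libraries, against 3.91%, 2.57%, 2.22%, 2.16% and 4.88% in the 9-week libraries. It was the same gene in all 5 older libraries, and that gene also led replicate 5 at 9 weeks. The younger libraries were led by 4 different genes, with replicates 1 and 2 sharing theirs. The 10 most abundant genes of a library took 13.8%, 13.7%, 13.3%, 14.2% and 14.4% at 27 weeks, against 21.4%, 17.1%, 12.2%, 12.9% and 23.8% at 9 weeks. Older fish were nearly level, and the younger fish lay on either side of them, replicates 1, 2 and 5 above and replicates 3 and 4 below. The SD between libraries was 0.419 points at 27 weeks and 5.11 points at 9 weeks.

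Wider lists contain the 10 leading genes, so their values are not separate from those above. With genes ranked by mean share over the 10 libraries, the 10 leading genes had a net difference of -3.54 points at 27 weeks. Ranks 11 to 100 went the other way, with a net difference of 1.62 points, as did all other genes, with 1.92 points. The 100 leading genes took 34.6% ± 0.834 of reads at 27 weeks and 37.1% ± 4.39 at 9 weeks, and the 1000 leading genes 63.4% ± 0.960 and 64.8% ± 2.09 (SD, n = 5 each). The number of genes that together hold 50% of reads was 298, 335, 357, 359 and 303 at 27 weeks, and 207, 267, 369, 358 and 217 at 9 weeks. The effective number of genes, the exponential of the Shannon entropy of the read shares, averaged 2397 ± 107 at 27 weeks and 2105 ± 510 at 9 weeks. At equal depth 20934 to 21028 genes had a read at 27 weeks and 20985 to 21329 at 9 weeks, a mean difference of -168 genes (two-sided exact permutation p = 0.0317, adjusted over 7 measures 0.222). None of the 7 measures of concentration passed after adjustment, the adjusted exact permutation p lying between 0.222 and 0.675. For the 10 leading genes the difference in means was -3.60 points (two-sided exact permutation p = 0.183, adjusted 0.324). It ranged from -4.92 to -2.01 points when 1 library was left out, the smallest being without replicate 5 at 9 weeks. Without that library the difference was -1.40 points for the 100 leading genes and 152.5 for the effective number of genes, against -2.50 and 292.9 with all 10 libraries. Without replicate 1 at 9 weeks these were -1.42 and 184.7, and without replicate 3 there 437.9 for the effective number. The SD of each of the 7 measures was larger at 9 weeks, by 2.18 to 12.2 times.

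**Figure D4:**
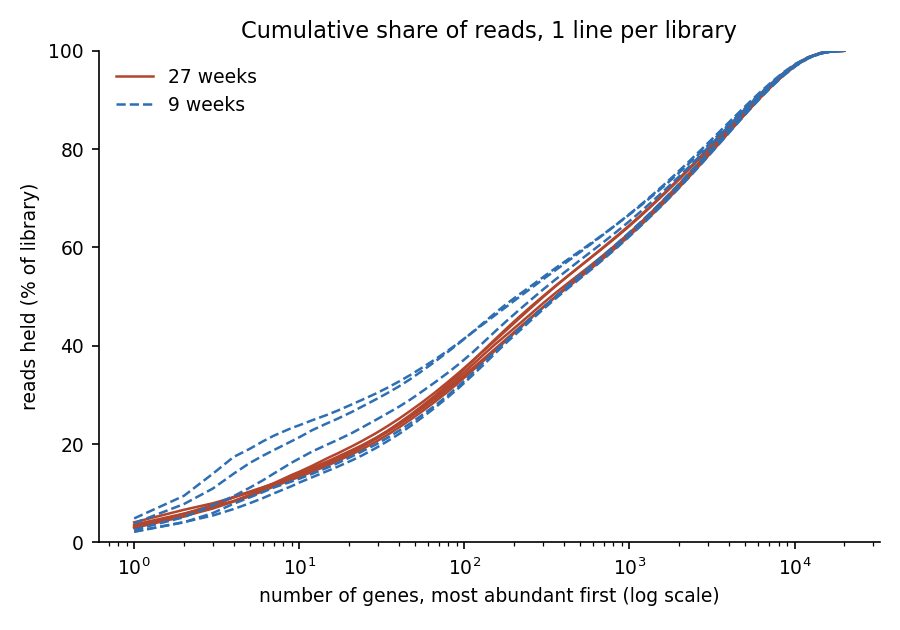
Percent of reads held by the most abundant genes, counted from the first gene on a log axis, with 1 line for each library. The 27-week libraries (solid) lie close together, while the 9-week libraries (dashed) spread from 12.2% to 23.8% at 10 genes.

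Which genes made the younger libraries uneven was read from the leading genes, ranked by mean share over the 10 libraries. The gene of rank 3 took 0.176%, 0.801%, 1.05%, 1.33% and 0.901% of reads in the 27-week libraries, against 3.91%, 2.57%, 1.17%, 0.944% and 4.59% in the 9-week libraries. Genes of rank 4 and 7 followed it: they took 0.195% to 1.24% and 0.177% to 0.995% at 27 weeks, against 0.593% to 4.52% and 0.488% to 3.38% at 9 weeks. All 3 were highest in replicates 1, 2 and 5 at 9 weeks and lowest in replicate 1 at 27 weeks. The ratio of rank 3 to rank 4 stayed between 0.903 and 1.12 at 27 weeks and between 1.00 and 1.59 at 9 weeks. Whether these genes are near copies that share reads cannot be seen from the counts.

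Together these 3 genes took 0.548%, 2.17%, 2.75%, 3.56% and 2.41% of reads at 27 weeks, against 10.8%, 6.96%, 2.89%, 2.02% and 12.49% at 9 weeks. Replicates 3 and 4 at 9 weeks thus lay among the older fish. The log2 differences were -1.72 (SE 0.48), -1.74 (SE 0.52) and -1.66 (SE 0.50), with edgeR adjusted p of 0.0563, 0.0678 and 0.0692, so none was called. At 9 weeks the same genes took 8.86% to 11.2% at 10% of LC50 and 3.37% to 13.3% at 0.1% of LC50. With these 3 genes left out, the 10 leading genes took 13.3% ± 0.764 of the remaining reads at 27 weeks and 13.1% ± 1.33 at 9 weeks. The genes were picked after their shares were seen, so this is a description without a test.

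**Figure D5:**
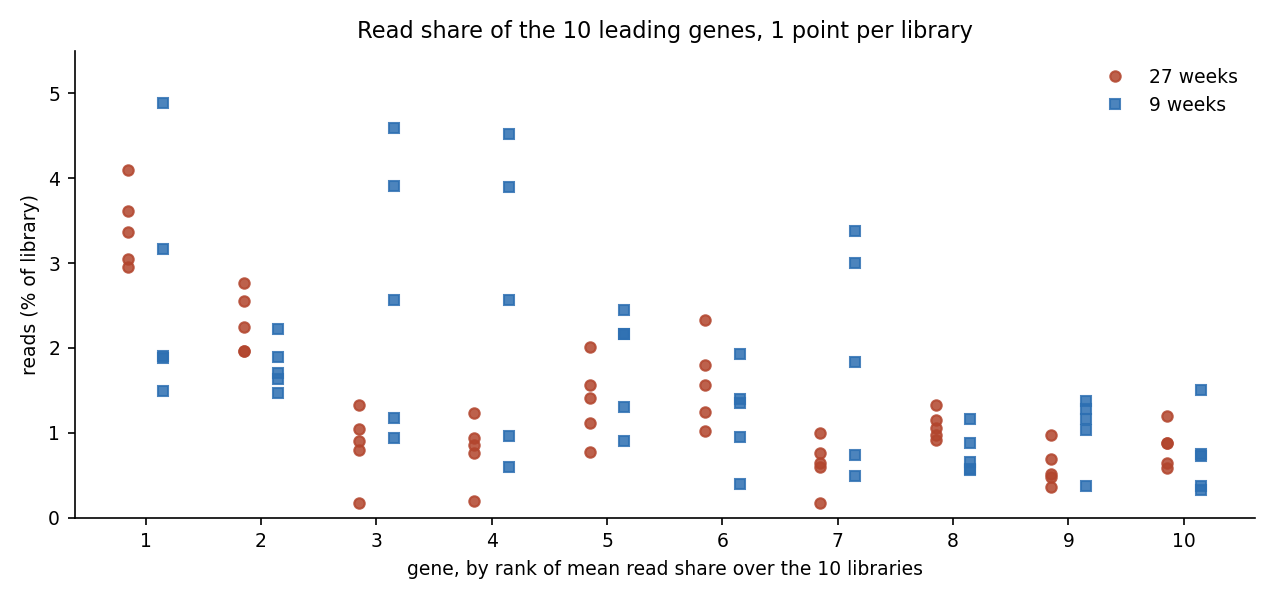
Percent of reads taken by each of the 10 leading genes, by rank of the mean over the 10 libraries, with 27-week libraries (circles) left of 9-week libraries (squares). At ranks 3, 4 and 7 the 9-week libraries reach 4.59%, 4.52% and 3.38%, while the 27-week libraries stay at or below 1.33%.

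The other 7 of the 10 leading genes had log2 differences from -0.81 (SE 0.34) at rank 9 to 0.44 (SE 0.21) at rank 8, with edgeR adjusted p between 0.141 and 0.89. Of the 10 leading genes 5 had a higher mean share at 27 weeks and 9 had a smaller SD of read share at 27 weeks. The gene of rank 1 took 3.41% ± 0.462 at 27 weeks and 2.67% ± 1.39 at 9 weeks (log2 difference 0.29, SE 0.28, edgeR adjusted p = 0.58). That of rank 2 took 2.30% ± 0.357 and 1.79% ± 0.286 (log2 difference 0.32, SE 0.13, edgeR adjusted p = 0.141). Of the 100 leading genes 2 rose and 2 fell, near the 4.49% called over all genes. Of the same 100 genes, 72 had a smaller SD of read share at 27 weeks. The 69.3% over all genes was counted on log2 CPM, so it is not a like value. Lists of leading genes were also more alike among older fish: 82 genes were in the top 100 of all 5 libraries at 27 weeks and 67 at 9 weeks.

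By class, the share of reads differed most in points between the ages for the most abundant genes. Genes with a mean log2 CPM of 10 and over took 37.2% ± 0.806 of reads at 27 weeks and 39.4% ± 4.07 at 9 weeks, a difference of -2.17 points, although the median log2 change in this class was 0.176. The genes of rank 3, 4 and 7 lie in this class and together differed by -4.74 points, a larger decrease than that of the class. The classes 4 to 6, 6 to 8 and 8 to 10 took 0.704, 0.853 and 0.664 points more at 27 weeks. The ages overlapped in every abundance class, also in that at 10 and over. The rarest class took 0.103% ± 0.00317 at 27 weeks and 0.117% ± 0.0102 at 9 weeks.

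Between the mean profiles of both ages 12.8% of reads would have to move to make them equal. The 10 leading genes made up 30.0% of that difference, the 100 leading genes 47.2%, and the 829 called genes 10.3%. The 93 genes that differed most in share held 50% of it. Pairs of single libraries differed by a median of 11.7% of reads within 27 weeks (7.71% to 14.6%), 17.47% within 9 weeks (13.3% to 26.6%) and 18.3% between the ages (10.0% to 24.8%). By share of reads, younger fish thus differed from each other about as much as from older fish.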

How the data were processed

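Skin RNA was made into libraries with a TruSeq RNA kit, per the labels. Listed in the submitters' processing notes are STAR 2.4.1d, featureCounts 1.4.6-p4 and CASAVA 1.8.2. Which genome build, annotation and strand setting were used is not given in the sources used here. Whole-number counts of reads per gene were deposited by the authors unnormalized, with 1 column per library. Of the count columns, 10 match no sample described and were not used. RPKM values were not used.

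Age was tested with edgeR 4.0.16 under R 4.3.3 (TMM, filterByExpr, glmQLFit, glmQLFTest, 1 mean per group) on 15 libraries, two-sided, with adjustment over all 18473 genes. SEs were derived from the change and its F statistic. CPM uses the TMM factors, and log2 CPM a prior count of 2. Library deviations were scaled for group size and, like the 7 concentration measures, compared by exact permutation over 10 libraries. The deviations were not recomputed for each labelling. Genes detected were counted after thinning to 21770720 reads. No 2 libraries of an age agreed within sampling noise (chi-square per degree of freedom at least 35.7). The fit was also tested on simulated data.

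Identifiers were named by the rule in the report. Members, classes and tests were chosen with earlier results of these data known. Alternatives were RLE and upper quartile scaling, 2 other filters, DESeq2 1.42.0, limma 3.58.1, other sets of libraries, other summaries and leaving out each library. Depth leaves counting error small except for genes with few reads. How reads of overlapping or near-identical genes were assigned is unknown.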

Additional observations from a re-analysis of the deposited data

How the results depend on the processing

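The number of called genes depended on the fit more than any other result. Instead of 829 (385 higher, 444 lower), DESeq2 called 2027 (970 and 1057), edgeR on all 20 libraries 423 (240 and 183), and edgeR on the 10 libraries at 1% alone 103 (49 and 54). Limma voom with group weights on those 10 libraries, added after the data were seen, called 98 (47 and 51). Leaving out 1 library gave 17 to 1754 genes, 10 to 885 higher and 7 to 869 lower. Along the abundance classes from rarest to most abundant, where 46, 92, 225, 340, 98, 23 and 5 genes were called, the fit of 10 libraries called 2, 21, 33, 38, 7, 2 and 0, and that of all 20 called 19, 52, 119, 170, 44, 10 and 3. RLE and upper quartile scaling and both other filters kept the total within 1.5 times. The cause of these differences was not tested. The difference in library deviation, -0.132, kept its sign and passed under 6 other settings, and ran from -0.166 to -0.0997 when 1 library was left out, missing the threshold only without replicate 1 at 9 weeks. Concentration measures stayed short of the threshold in each alternative. When 1 library was left out their differences ran from 0.0152 to 0.696 points for the leading gene, -3.66 to -1.40 for 100 genes, -2.06 to -0.919 for 1000 genes, 27.6 to 68.2 genes holding 50% of reads, 152.5 to 437.9 for the effective number and -210.0 to -124 genes detected. The difference for the single leading gene, 0.262 points, became -0.73 points with the gene of rank 1 removed. This took the leading gene from every 27-week library, but at 9 weeks only from replicate 5. The other younger libraries kept their leading gene, so the ages are not compared alike. The difference for the 10 leading genes became 0.171 points without the genes of rank 3, 4 and 7. For Nfu_g_1_012319 the call was also lost with all 20 libraries (edgeR adjusted p = 0.11) and without a filter (0.0605). Depth limits mainly the rarest class.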

Other observations

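Another set of leading genes, those of rank 5, 6, 9, 11, 13 and 18, varied in another order of libraries. They were also picked after their shares were seen. Together they took 5.49%, 2.93%, 4.77%, 3.98% and 7.37% of reads in the 27-week libraries, against 5.94%, 7.59%, 5.08%, 7.51% and 2.25% in the 9-week libraries. Replicate 5 at 9 weeks, the library highest in the genes of rank 3, 4 and 7, was the lowest in this set, while replicates 2 and 4 were the highest. The ages overlapped.

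Almost all genes read at 1 age were also read at the other. In all 5 older libraries 19899 genes had a read, and in all 5 younger libraries 19859. Only 1 gene was read in every 27-week library and in no 9-week library, with at most 3 reads in a library. In the other direction there were 6 genes, with at most 32 reads in a library.

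Of 40 sets of 5 values examined for a sample far from the others (Dixon's test), 0 passed the limit, where chance passes about 1 in 20.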
